A study of Mus musculus with 6 samples.

Results

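The genes described here encode the constant regions of the gamma chain (Trgc1, Trgc2) and the beta chain (Trbc1, Trbc2) of the T cell receptor and the signalling chains that carry it to the cell surface (Cd3d, Cd3e, Cd3g and Cd247). They were chosen by name, and all 8 were found among the 18478 genes of the deposited table. RNA came from group 2 innate lymphoid cells (ILC2s) sorted from the lungs of BALB/c mice of 6 weeks, in 3 CB2 KO and 3 WT libraries. CB2 KO mice lack cannabinoid receptor 2, a G protein-coupled receptor encoded by Cnr2. Both groups were given IL-33, an alarmin that activates ILC2s, by the nose 3 times, 1 µg each time. Sorted cells of both groups were then kept for 24 h with the survival cytokines IL-2 and IL-7, each at 10 ng/mL. The labels give neither the sorting gate nor the deletion carried by the CB2 KO mice, and they do not tell separate animals from repeated preparations. The p-values below therefore measure the spread between these libraries, which may be technical.

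A T cell receptor is a pair of chains, alpha with beta or gamma with delta, each made of a variable part joined by DNA recombination to a constant region. The pair has no signalling tail of its own. It is assembled with CD3 gamma, delta and epsilon and with the zeta chain encoded by Cd247, which carry the tyrosine motifs (ITAMs) that kinases phosphorylate. ILC2s arise from precursors shared with T cells and are defined by the absence of a surface antigen receptor, but RNA and incomplete rearrangements from T cell receptor loci have been described in mouse ILC2s. The question here is which of these genes the sorted cells transcribed and whether their levels differed between CB2 KO and WT cells.

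Totals ran from 17141698 to 21103769 estimated counts in CB2 KO libraries and from 17850840 to 21621008 in WT libraries. The library labelled CB2 KO replicate 1 lay apart from the other 5 on the first principal component, which held 37.6% of the variance. In it the targeted gene Cnr2 was at 9.24 CPM (estimated counts scaled to a common library size), against 1.60 and 3.84 CPM in the other CB2 KO libraries and 9.32, 17.4 and 15.8 CPM in WT libraries. Its Cnr2 level was thus next to that of the lowest WT library. Fold changes of the receptor genes that rest on the library labelled CB2 KO replicate 1 are given with and without it.

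Sequence decides how well the constant genes can be told apart by short reads. Compared over their first exons in GENCODE M21 transcripts on mm10, Trgc1 and Trgc2 had 97.3% of the 330 bases in common, with 9 differences, and Trgc1 and Trgc4 had 82.1% in common, with 59 differences. Trgc4, which is not among the 8 genes but is the third gamma constant gene with counts, is given beside them throughout. Of all 75-base stretches in Trgc1 transcripts, 4.94% occurred in Trgc2 as well, and 0 occurred in Trgc4. Counted separately, 12.7% occurred in Trgc3, a gamma constant gene that is not analysed here.

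The first exons of Trbc1 and Trbc2, of 375 bases each, differed at 1 base. The longest stretch without a difference was 259 bases. Of the 75-base stretches of Trbc1 transcripts, 34.6% also occurred in Trbc2, and 37.7% of those of Trbc2 occurred in Trbc1. An estimated count per gene can stop being whole where a read is shared out between genes. All 18 values of Trbc1, Trbc2 and Cd247 were more than 0.01 away from a whole number, whereas all 24 values of Cd3d, Cd3e, Cd3g and Trgc4 were within 0.01 of one. Of the 6 values each of Trgc1 and Trgc2, 1 was within 0.01 of a whole number. The division of reads between Trbc1 and Trbc2, and between Trgc1 and its near copies, is therefore uncertain, and sums are given beside the single genes. The reference sequence is from C57BL/6J, whereas the mice were BALB/c, and the effect of strain differences on counting was not tested.

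Transcripts of the constant genes were abundant, and those of the CD3 genes were scarce. Divided by the merged exon length of each gene, Trgc4 was at 255 ± 36.5 CPM per kb in CB2 KO and 325 ± 15.4 CPM per kb in WT (mean ± SD, n = 3 each, as in all values below given with ±). Trgc1 followed at 141 ± 16.1 CPM per kb in CB2 KO and 232 ± 16.4 in WT, and Trbc2 at 173 ± 12.8 CPM per kb in CB2 KO and 195 ± 8.18 in WT. Next came Trbc1, at 79.8 ± 19.4 CPM per kb in CB2 KO and 59.2 ± 0.95 in WT. The signalling chains stood far lower, with Cd3g at 7.99 ± 0.78 CPM per kb in CB2 KO and 4.27 ± 1.201 in WT and Cd247 at 3.17 ± 1.36 CPM per kb in CB2 KO and 2.07 ± 0.45 in WT. Trgc2, Cd3e and Cd3d did not exceed 1.17, 0.78 and 0.44 CPM per kb in any library. In this order Trbc2 exceeded Trbc1, and Trbc1 exceeded Cd3g, over all 6 libraries without overlap. Trgc4 was above Trgc1 in each of the 6 libraries, although their ranges overlapped across libraries. Per kb, the order of Trgc1 and Trbc2 split by group. In CB2 KO libraries Trgc1 was at 125 to 157 CPM per kb and Trbc2 above it at 163 to 187. In WT libraries Trgc1 was at 215 to 248 CPM per kb and Trbc2 below it at 185 to 200.1. Without division by length the order did not split by group. CB2 KO replicates 1 to 3 had 145, 115.4 and 128.9 CPM of Trgc1 and 116, 113.1 and 129.5 CPM of Trbc2. The order also rests on the uncertain division of reads between Trbc1 and Trbc2. The ranges of Trgc2, Cd3e and Cd3d overlapped with one another.

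**Figure D1:**
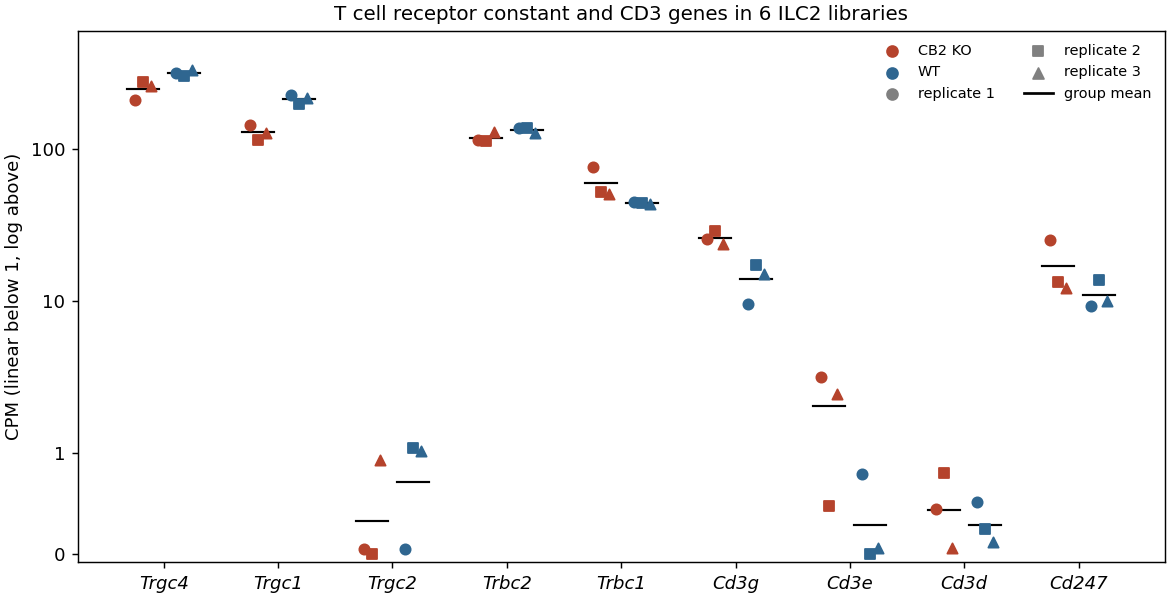
Level of each T cell receptor constant and CD3 gene in CPM, on an axis that is linear below 1 and logarithmic above, with CB2 KO libraries left of WT libraries, 1 symbol per replicate number and a line at the group mean. Trgc1 lies lower and Cd3g higher in the 3 CB2 KO libraries without overlap with WT, and Trgc2, Cd3e and Cd3d lie near 0; Trgc4 is shown for comparison.

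Of the 8 genes, 7 passed the filter on low counts and were tested, while Cd3d did not pass it. In edgeR's quasi-likelihood test over 14084 genes, 0 of the 7 passed an adjusted p of 0.05, where 0.107% of all tested genes did (0.0426% higher and 0.0639% lower in CB2 KO). At an unadjusted p under 0.05 there were 2 of 7 (Trgc1 and Cd3g), against 8.59% of all tested genes. Both were among the 5 receptor genes with a mean of at least 10 CPM, and 9.02% of all genes at that level had such a p. DESeq2 called 1 of 7, Trgc1, where it called 2.58% of genes. Groups did not overlap for 3 of 7 genes (Trgc1 below, Trbc1 and Cd3g above WT), against 14.1% of all tested genes (6.91% above and 7.2% below) and 15.4% of those with a mean of at least 10 CPM. Of the 7 genes, 4 had a positive and 3 a negative log2 fold change (CB2 KO over WT), with a median of 0.44, and over all tested genes the median was 0.00.

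Both abundant gamma constant genes had lower means in CB2 KO cells, though neither passed edgeR's test. Trgc1, the constant gene of the cluster with the most gamma variable segments, was at 145, 115 and 129 CPM in CB2 KO replicates 1 to 3, against 229, 199 and 217 CPM in WT replicates 1 to 3. Each CB2 KO library was below each WT library, and the gap between the groups exceeded the range within either. The mean was 129.8 ± 14.9 CPM in CB2 KO and 215 ± 15.2 CPM in WT, a log2 fold change of -0.73 (SE 0.12; 1.66-fold higher in WT). Among all tested genes it ranked 44 by p, but it did not pass edgeR's test with Benjamini-Hochberg adjustment (adjusted p = 0.118). DESeq2 on the same counts gave a log2 fold change of -0.72 and an adjusted p of 3.33e-07, so the call depends on the tool. Left out of the fit, the library labelled CB2 KO replicate 1 took the edgeR log2 fold change of Trgc1 to -0.82, with an adjusted p of 0.195. Over all 16 alternatives the log2 fold change ran from -0.82 to -0.64 and the adjusted p from 3.33e-07 to 0.531. In bulk RNA, fewer cells carrying a transcript and less of it per cell cannot be told apart.

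Trgc4, the constant gene joined to the variable segment Trgv1, was at 210.4, 279 and 263 CPM in CB2 KO replicates 1 to 3, against 319.8, 305 and 335 CPM in WT replicates 1 to 3. All CB2 KO libraries were below all WT libraries, the library labelled CB2 KO replicate 1 lowest. Its log2 fold change was -0.35 (SE 0.11) and its adjusted p in edgeR's test was 0.464. With that library left out the log2 fold change was -0.24, whereas that of Trgc1 moved the other way. Trgc2 had 1.07, 0 and 15.9 estimated counts in CB2 KO replicates 1 to 3, against 1.06, 22.1 and 18.03 in WT replicates 1 to 3. Counts of at most 3, which a count of 0 allows, correspond here to 0.140 to 0.174 CPM for counting error alone, so Trgc2 was near the detection limit in both groups and no difference was detectable (log2 fold change -1.22, 95% interval -4.46 to 2.01, edgeR adjusted p = 0.869). Single libraries set the Trgc2 value: it was -4.51 without CB2 KO replicate 3, -0.59 without CB2 KO replicate 2, -0.73 without WT replicate 2 and -0.71 with the library labelled CB2 KO replicate 1 left out.

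Summed, the gamma constant genes were at 356, 394 and 393 CPM in CB2 KO replicates 1 to 3, against 549, 505 and 553 CPM in WT replicates 1 to 3. The beta sum did not follow: Trbc1 and Trbc2 together were at 192, 165 and 180.3 CPM in CB2 KO replicates 1 to 3, against 183, 182 and 172 CPM in WT replicates 1 to 3. Means of the beta sum were 179 ± 13.6 CPM in CB2 KO and 179 ± 6.02 CPM in WT. Gamma transcripts accordingly made up 64.9, 70.5 and 68.6% of the gamma and beta constant counts in CB2 KO libraries, against 75.03, 73.5 and 76.3% in WT libraries. No test was made of sums and shares, since they combine the chosen genes.

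Within the beta sum, the constant genes had fold changes of opposite sign, neither of which passed the test. Trbc1 was at 76.6, 52.1 and 50.8 CPM in CB2 KO replicates 1 to 3, against 45.1, 43.9 and 43.9 CPM in WT replicates 1 to 3. The library labelled CB2 KO replicate 1 was far above the rest, and the other CB2 KO libraries were above the highest WT library by more than the range of the WT libraries. The log2 fold change was 0.44 (SE 0.21, edgeR adjusted p = 0.632), and it was 0.22 (edgeR adjusted p = 0.794) once the library labelled CB2 KO replicate 1 was left out. Trbc2 was at 116, 113 and 129.5 CPM in CB2 KO replicates 1 to 3, against 137, 138 and 128 CPM in WT replicates 1 to 3. Here the groups overlapped, with CB2 KO replicate 3 above WT replicate 3, and the log2 fold change was -0.18 (SE 0.11, edgeR adjusted p = 0.692). As a share of both genes, Trbc1 took 39.8, 31.6 and 28.2% in CB2 KO libraries, against 24.7, 24.1 and 25.5% in WT libraries. All 3 CB2 KO shares lay above all WT shares. How far the sharing out of common reads contributes to this was not tested.

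**Figure D2:**
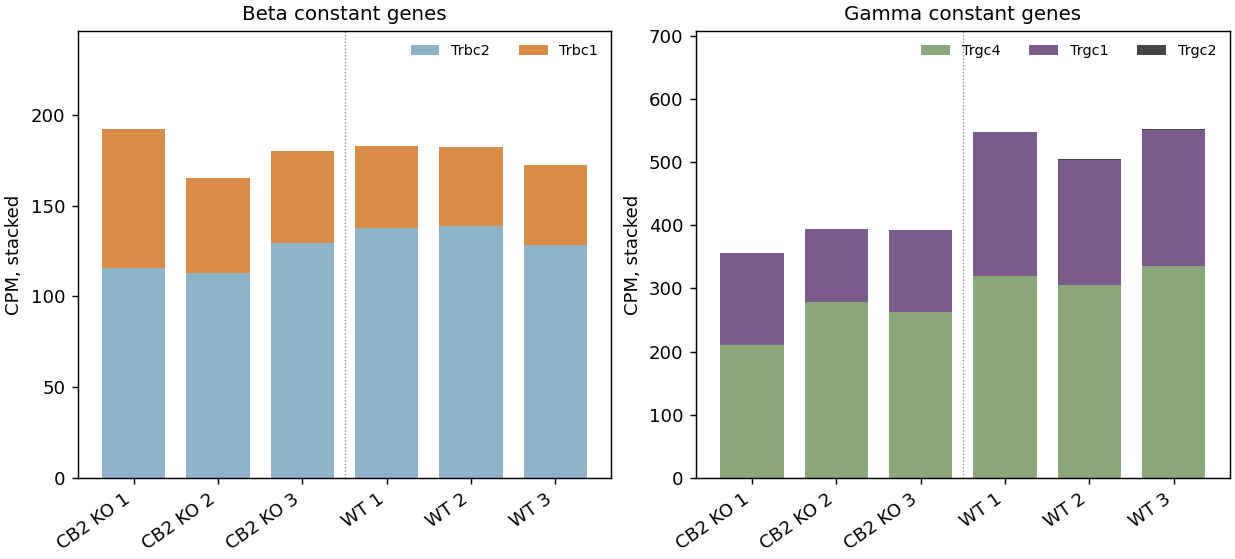
Stacked CPM of the beta constant genes (left) and gamma constant genes (right) in each library, CB2 KO libraries left of the dotted line and WT libraries right of it. Beta sums lie between 165 and 192 CPM in CB2 KO and 172 and 183 CPM in WT with a larger Trbc1 part in CB2 KO, and gamma sums lie at 356 to 394 CPM in CB2 KO and 505 to 553 CPM in WT.

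Of the 3 CD3 genes, Cd3g alone was present at an appreciable level. CD3 gamma pairs with CD3 epsilon in the receptor complex. The genes lie side by side on mm10, Cd3g at chr9:44969572-44980431 (minus strand), Cd3d at chr9:44981786-44987339 (plus strand) and Cd3e at chr9:44998740-45009627 (minus strand). Cd3g was at 25.6, 28.9 and 23.9 CPM in CB2 KO replicates 1 to 3, against 9.60, 17.2 and 15.1 CPM in WT replicates 1 to 3. The lowest CB2 KO library lay above the highest WT library, and WT replicate 1 was the lowest of all. Its mean was 26.1 ± 2.53 CPM in CB2 KO and 13.96 ± 3.93 CPM in WT, 1.90-fold higher (log2 0.92, SE 0.29, 95% interval 0.25 to 1.59). The test over all genes was not passed (edgeR adjusted p = 0.451, unadjusted p = 0.0136), and DESeq2 gave an adjusted p of 0.0573. The log2 fold change was 0.94 with the library labelled CB2 KO replicate 1 left out and 0.69 with WT replicate 1 left out.

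CD3 epsilon, encoded by Cd3e, pairs with both CD3 gamma and CD3 delta, and Cd3e and Cd3d were both at trace levels. Cd3e had 64, 10 and 42 counts in CB2 KO replicates 1 to 3, against 17, 0 and 1 counts in WT replicates 1 to 3. The groups overlapped, because CB2 KO replicate 2 was below WT replicate 1. The log2 fold change of 2.69 came with a 95% interval of -0.06 to 5.44 (edgeR adjusted p = 0.588) and ran from 2.09 to 5.93 over the alternatives, the highest without WT replicate 1. Cd3d had 9, 17 and 1 counts in CB2 KO replicates 1 to 3, against 11, 5 and 2 counts in WT replicates 1 to 3, and the lowest library of each group was below 3 counts. Cd3g made up 87.6, 95.8 and 90.5% of all CD3 counts in CB2 KO libraries, against 88.0, 98.6 and 98.9% in WT libraries. An annotated antisense gene, Gm48719, lies within Cd3e, and without a stated strand setting its reads could not be told from those of Cd3e.

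Cd3g and Cd3d are transcribed away from each other from starts 1355 bases apart, so their promoters are shown as the sequences between a transcribed and a nearly silent neighbour. Each window holds 250 bases before and 50 after the start, 5′ to 3′ on the gene's strand, from RefSeq on GRCm38.p6: chr9:44980382-44980681 (Cd3g, minus strand) and chr9:44981536-44981835 (Cd3d, plus strand). Capitals mark matches on either strand to the GATA factor motif GATAA, the RUNX motif TGTGGT, the E box CAGCTG, its variant CAGGTG, the TATA box TATAAA or the ETS motif GGAAGT, and no matches overlap.
Cd3g: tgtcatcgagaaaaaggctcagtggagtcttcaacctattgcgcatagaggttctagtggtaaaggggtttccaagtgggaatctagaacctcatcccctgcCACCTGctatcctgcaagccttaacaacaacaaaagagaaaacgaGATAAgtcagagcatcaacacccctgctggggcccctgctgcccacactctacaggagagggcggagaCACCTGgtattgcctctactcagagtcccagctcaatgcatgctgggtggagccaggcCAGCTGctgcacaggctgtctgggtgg
Cd3d: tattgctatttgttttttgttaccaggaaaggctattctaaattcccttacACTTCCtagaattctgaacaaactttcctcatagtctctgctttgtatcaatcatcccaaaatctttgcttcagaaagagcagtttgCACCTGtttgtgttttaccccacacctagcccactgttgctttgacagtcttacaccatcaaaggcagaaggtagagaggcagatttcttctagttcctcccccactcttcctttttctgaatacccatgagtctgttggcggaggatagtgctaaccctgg

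The Cd3g window held 1 GATAA, 1 CAGCTG and 2 CAGGTG matches, and the Cd3d window held 1 CAGGTG and 1 GGAAGT match. Such letters are common: of 32851 promoter windows of the same length, 25.4% held GATAA, 16.3% CAGCTG, 20.2% CAGGTG and 23.8% GGAAGT. Neither window held TGTGGT, found in 16.8% of all windows. TATAAA was likewise in neither, and in 13.6% of all windows.

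Cd247 encodes the zeta chain, which also serves natural killer cell receptors and so is not limited to T cells. The gene lies at chr1:165788681-165877277 on the plus strand of mm10. It was at 25.2, 13.3 and 12.2 CPM in CB2 KO replicates 1 to 3, against 9.27, 13.8 and 10.0 CPM in WT replicates 1 to 3. Apart from the library labelled CB2 KO replicate 1, the groups covered the same range. The log2 fold change was 0.63 (SE 0.40, edgeR adjusted p = 0.720) and 0.21 without that library (edgeR adjusted p = 0.935). Gm16565, a noncoding gene that overlaps the start of Cd247 on the same strand, had 9.43, 14.3 and 27.1 estimated counts in CB2 KO libraries, against 90.3, 0 and 25.8 in WT libraries.

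**Figure D3:**
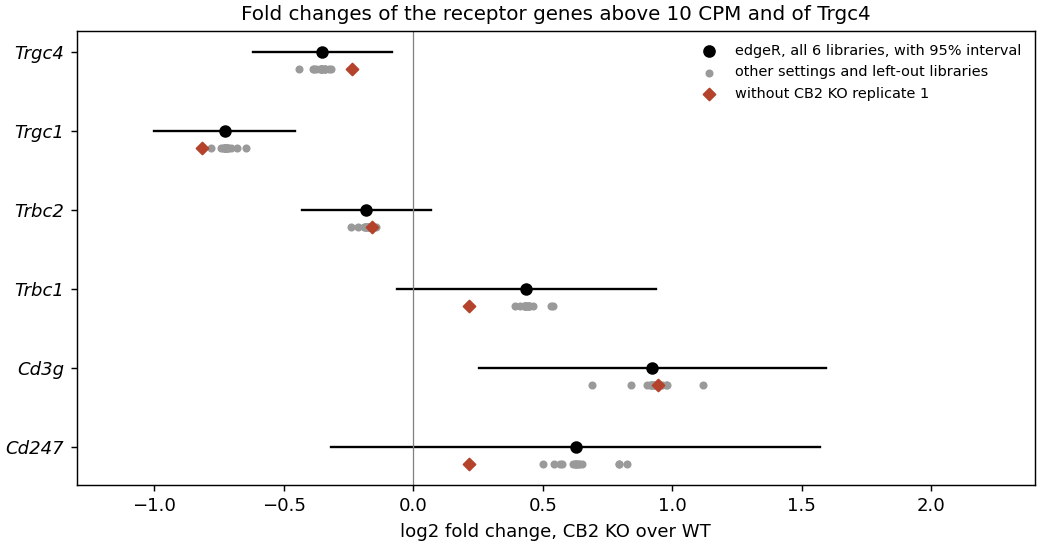
Log2 fold changes (CB2 KO over WT) of the 5 genes with a mean of at least 10 CPM and of Trgc4: black points are edgeR values on all 6 libraries with 95% intervals, grey points the other alternatives, and red diamonds the fit without CB2 KO replicate 1. Trgc1 and Trgc4 lie below 0 and Cd3g above 0 in each fit, with intervals that leave out 0 over all 6 libraries, and the values without CB2 KO replicate 1 are nearer to 0 for Trgc4, Trbc2, Trbc1 and Cd247 and farther from 0 for Trgc1 and Cd3g.

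The partner chains of a complete receptor were hardly detected. Trac, the only alpha constant gene, had 0, 47 and 28 counts in CB2 KO replicates 1 to 3, against 6, 0 and 22 in WT replicates 1 to 3. Trdc, the delta constant gene, had 43, 0 and 13 counts in CB2 KO replicates 1 to 3, against 0, 37 and 25 in WT replicates 1 to 3. Each was absent from at least 1 library of either group and reached at most 2.22 and 2.14 CPM. Per kb of exon, Trac averaged 0.96 CPM and Trdc 0.26 CPM over the 6 libraries, against 289.8 CPM for Trgc4. Ptcra, which pairs with a new beta chain in thymocytes, was listed but too low to test.

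Variable segments were scarce as well. The table lists 9 of them and 1 joining segment, and the variable segments other than Trdv4 summed to between 1.10 and 2.31 CPM in CB2 KO and between 1.21 and 2.78 CPM in WT. Trdv4, a delta variable segment, had 198, 213 and 77 counts in CB2 KO replicates 1 to 3, against 135, 113 and 97 in WT replicates 1 to 3 (log2 fold change 0.53, edgeR adjusted p = 0.791). Trgj4, the joining segment upstream of Trgc4, was at 0.80 to 1.10 CPM in CB2 KO and 0.79 to 1.27 CPM in WT. Trgv2, of the cluster of Trgc2, had 27, 0 and 3 counts in CB2 KO libraries, against 0, 36 and 11 in WT libraries. Trgv1, which recombines to Trgj4 and Trgc4, had 0 counts in each CB2 KO library, against 11, 11 and 15 counts in WT replicates 1 to 3. Trgv1 passed the filter on low counts only through its WT libraries, where its mean was 0.63 ± 0.19 CPM, so no fold change is given. For the same reason its edgeR test (adjusted p = 0.214) cannot decide whether Trgv1 differed, and no conclusion is drawn from it. No beta or alpha variable segment exceeded 17 counts in any library. Rearranged joints cannot be read from gene counts.

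Genes that act with the receptor gave no call in edgeR's test, and those named here are the most abundant of each list. Among kinases, phosphatases and adaptors next to the receptor, 0 of 42 tested genes passed (17 positive, 25 negative, median log2 fold change -0.03; DESeq2 called 1, Sit1, which encodes an inhibitory adaptor). Lcp2, which encodes the adaptor SLP-76, was at 530.5 ± 34.4 CPM in CB2 KO and 532 ± 48.8 CPM in WT. Other abundant genes of the list were Skap1 (469 ± 18.7 CPM in CB2 KO, 479.7 ± 11.98 in WT), Sh2d2a (421 ± 22.8 in CB2 KO, 432 ± 30.1 in WT), Dok2 (328 ± 9.13 in CB2 KO, 296 ± 26.2 in WT) and Grb2 (223 ± 21.4 in CB2 KO, 266 ± 10.2 in WT), all of which encode adaptors. Downstream signalling genes gave 0 of 34 (15 positive, 19 negative, median -0.02), among them Pik3cd at 276 ± 31.6 CPM in CB2 KO and 308 ± 50.2 CPM in WT. The calcium channel gene Itpr1 was at 152 ± 37.4 CPM in CB2 KO and 105 ± 17.6 CPM in WT, with overlapping groups (edgeR adjusted p = 0.540). DESeq2 called 1 gene of that list, Egr3, at 3.83, 0.66 and 1.69 CPM in CB2 KO replicates 1 to 3 and 0 in all WT libraries. This low gene passed the filter on low counts only through its CB2 KO libraries, so the call carries little weight.

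Transcription factors of the T lineage gave 0 of 29 (16 positive, 13 negative, median 0.02). Gata3, which ILC2s and T helper 2 cells both need, was at 964 ± 28.2 CPM in CB2 KO and 1057 ± 55.2 CPM in WT. Id2, which restrains E proteins, was at 1508 ± 69.0 CPM in CB2 KO and 1651 ± 40.4 CPM in WT, and Ets1 at 484 ± 24.2 CPM in CB2 KO and 498 ± 30.03 CPM in WT. Coreceptors and accessory surface genes gave 0 of 9 (3 positive, 6 negative, median -0.04; DESeq2 called 1 lower, Icos, a costimulatory receptor gene, at 431 ± 32.4 CPM in CB2 KO and 552 ± 58.3 CPM in WT). Of 12 listed genes of the recombination machinery 10 were found, and none of those tested encodes the recombinase itself. Here 0 of 9 passed (3 positive, 6 negative, median -0.23), and DESeq2 called Hmgb1 and Hmgb2 lower. These encode chromatin proteins that assist the recombinase and act in most other cells too: Hmgb2 was at 554 ± 9.16 CPM in CB2 KO and 697 ± 21.3 CPM in WT. The terminal transferase gene Dntt was too low to test. Among ITAM adaptors and their partner receptors 0 of 6 passed (4 positive, 2 negative, median 0.25), and Fcer1g, which can stand in for the zeta chain in other receptors, was at 2.52 ± 0.99 CPM in CB2 KO and 3.09 ± 0.88 CPM in WT.

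**Figure D4:**
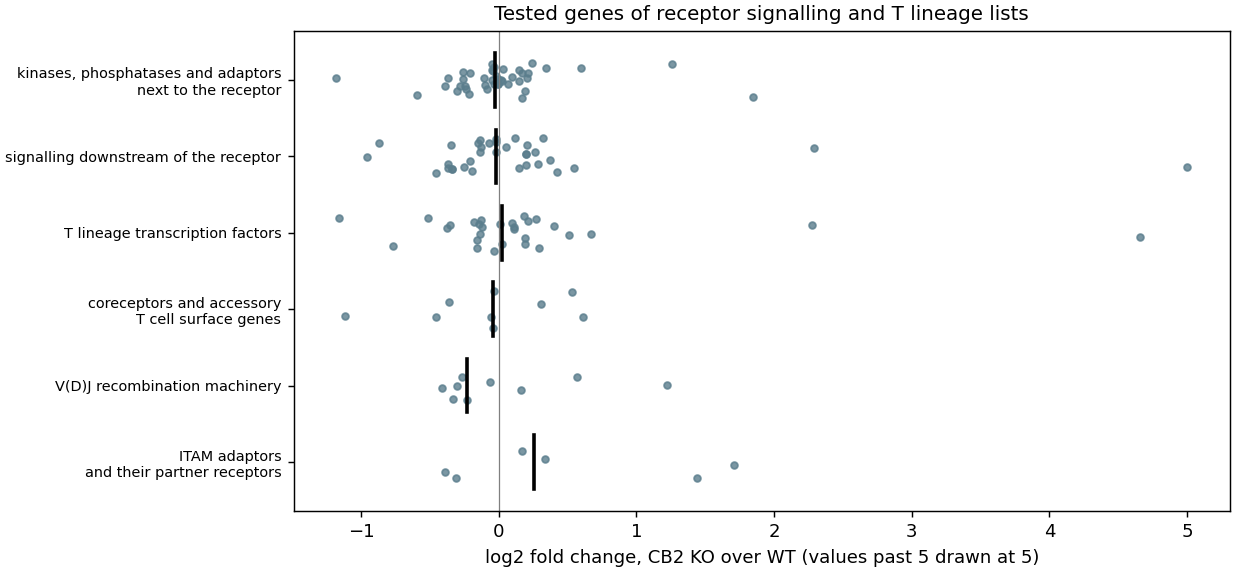
Log2 fold changes (CB2 KO over WT) of the tested genes of 6 lists of receptor signalling and T lineage genes, 1 point per gene, with a black bar at the median and values past 5 drawn at 5. Medians lie between -0.23 and 0.25, and none of the genes passed edgeR's test.

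ILC2 markers include Gata3, which T helper 2 cells need too, so their levels alone cannot tell ILC2s from such cells. Of 20 listed, 19 were in the table and summed to between 16599 and 18952 CPM in CB2 KO and between 17237 and 18315 CPM in WT, with Il5 the largest term at 9021 ± 1070.03 CPM in CB2 KO and 7343 ± 469.6 CPM in WT. Of the 19 tested, 13 had a negative log2 fold change, and 10 were lower in all CB2 KO than in all WT libraries and 1, Il5, higher, against 7.2% and 6.91% of all tested genes. At an unadjusted p under 0.05 in edgeR's test there were 8 lower and 1 higher, against 600 lower and 610 higher of all 14084 tested genes. After adjustment edgeR called 0 of 19, where it called 0.107% of all tested genes. DESeq2 called 3 lower (Ly6a, Nmur1 and Icos) and 1 higher (Il5), where it called 2.58% of all genes. Nmur1, the neuromedin U receptor gene, was at 117 ± 8.46 CPM in CB2 KO and 187 ± 11.9 CPM in WT. Trgc1 and Trgc4 were lower in the same libraries, and whether they moved with these markers was not tested. Il1rl1, the IL-33 receptor gene, was at 924 ± 23.2 CPM in CB2 KO and 964 ± 59.3 CPM in WT. Of 16 markers of conventional T cells, 11 were in the table, and Cd4, Cd8a, Cd5, Cd6 and Themis were not analysed here. Their sum was 124 to 131 CPM in CB2 KO and 90.8 to 109.97 CPM in WT, without overlap between the groups. Most of it came from Ubash3a (40.9 ± 3.99 CPM in CB2 KO, 35.4 ± 4.199 in WT), Lef1 (32.5 ± 18.03 in CB2 KO, 36.7 ± 5.77 in WT) and S1pr1 (43.7 ± 15.97 in CB2 KO, 21.1 ± 11.97 in WT), which other lymphocytes express too. Trat1 was found in WT replicate 2 alone (0.93 CPM) and Cd8b1 in CB2 KO replicate 2 alone (1.13 CPM). Of the 7 tested T cell markers, 0 passed edgeR's test, and 5 had a positive and 2 a negative log2 fold change. Groups did not overlap for 0 of these 7, against 14.1% of all tested genes. The sum of the T cell markers and Cd3g were both higher in CB2 KO libraries, though each tested marker alone overlapped between groups. The part of T cells in the level of Cd3g was not tested.

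Of 13 listed gamma delta T and NKT cell markers, 5 were in the table, Trdc and Trdv4 among them, and summed to 10.1 to 18.5 CPM in CB2 KO and 6.29 to 14.2 CPM in WT. Those of NK cells and ILC1s (4 of 13 in the table) summed to 12.2 to 27.7 CPM in CB2 KO and 23.9 to 33.03 CPM in WT. The most abundant of them was Gzmb, at 19.7 ± 8.93 CPM in CB2 KO and 24.0 ± 3.12 CPM in WT. B cell markers (6 of 10) summed to 28.8 to 37.2 CPM in CB2 KO and 22.2 to 74.9 CPM in WT. In edgeR's test 0 of the 3, 1 and 3 tested genes of these lists passed, and in DESeq2 0 passed. Macrophage and monocyte markers (7 of 10) summed to 152 to 176 CPM in CB2 KO, above 12.1 to 59.2 CPM in WT, mainly through Chil3, at 128 ± 18.4 CPM in CB2 KO and 18.9 ± 25.1 CPM in WT. Mast cell and basophil markers (9 of 10) summed to 54.7 to 122 CPM in CB2 KO and 29.6 to 49.4 CPM in WT. edgeR called 0 of 5 and 0 of 7 tested genes of these lists, and DESeq2 called Lyz2 and Tpsb2. Their part in the levels of the receptor genes was not tested.

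**Figure D5:**
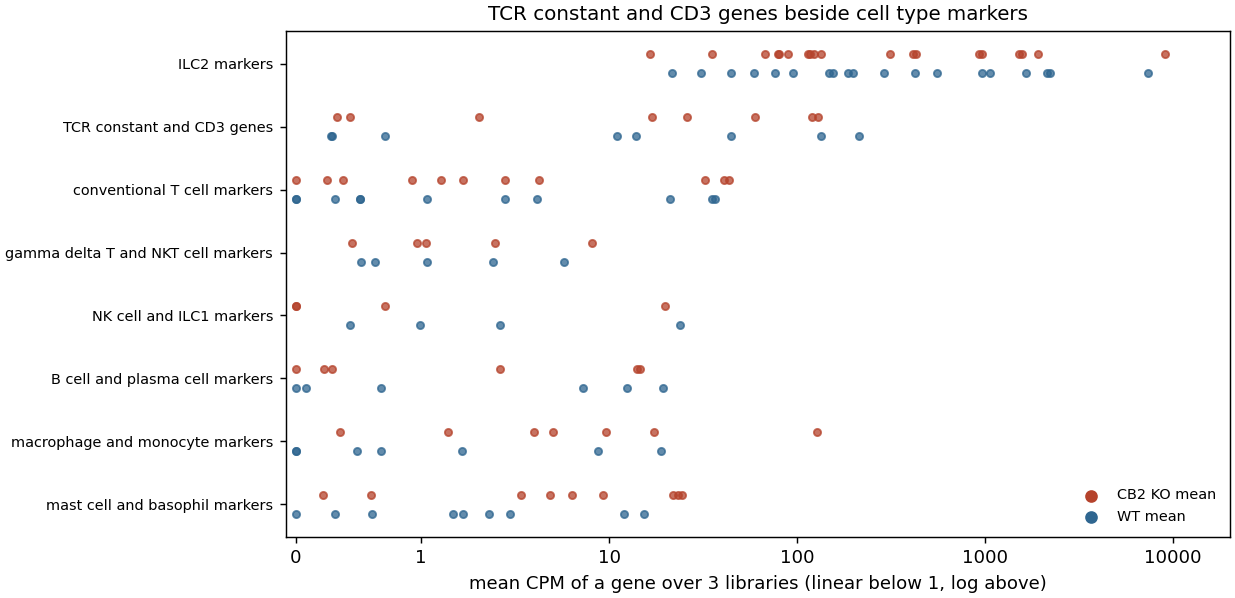
Mean CPM of each gene over 3 libraries, on an axis that is linear below 1 and logarithmic above, for the T cell receptor constant and CD3 genes and for marker lists, with CB2 KO above WT in each row. The constant genes, up to 129.8 CPM in CB2 KO and 215 CPM in WT, lie in the range of ILC2 markers, apart from Trgc2, and above the other markers except Chil3, which in CB2 KO is above Trbc1 and Trbc2.

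The genes whose pattern over the 6 libraries was most like that of each receptor gene were looked up among 9236 other genes with a mean of at least 10 CPM. Likeness was the root mean square difference of log2 CPM centred on each gene's mean, where 0 is the same pattern. Nearest to Trgc1 were Stag2, a cohesin subunit gene, at 0.06 and Cd52, a lymphocyte surface glycoprotein gene, at 0.08, where the median gene was at 0.46. For Trbc1 they were Aspscr1 at 0.04 and mt-Nd2, a mitochondrially encoded subunit of complex I, at 0.05, with a median gene at 0.38. For Trbc2 it was Rab1b at 0.02, with a median gene at 0.29. Cd3g was nearest to Dkk3 at 0.14 and Tnfrsf4, the OX40 gene, at 0.15, with a median gene at 0.60. For Cd247 they were Ptcd1 at 0.10 and Csrnp1 at 0.11, with a median gene at 0.53. No close neighbour was found for the low genes: the nearest to Cd3e, Tpsb2 and Camk2b, were at 0.87 and 0.996, and the nearest to Trgc2, Nr4a1 and Xrcc2, at 0.75 and 0.81. With 6 libraries and this many candidates, small distances describe these libraries only.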

How the data were processed

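RNA-seq of 6 libraries was used. The authors deposited an estimated count per gene and library, which need not be whole, from the expectation-maximization quantification of Partek named in the deposited table's title. They also deposited a normalized signal, which equals the estimated count plus 1 divided by 1 factor per library. CASAVA 1.8.2, STAR (version given as 3.5.3), Partek and mm10 are named in the submitters' processing notes. Read length and strand setting are not given in the sources used here. Deposited stops lie 1 above GENCODE M21 ends, which are printed.

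Estimated counts were rounded and tested with edgeR 4.0.16 in R 4.3.3: TMM, filterByExpr, glmQLFit (robust=TRUE, legacy=FALSE), glmQLFTest and Benjamini-Hochberg adjustment over all 14084 tested genes, with a threshold of 0.05. CPM use TMM-scaled library sizes. DESeq2 1.42.0, limma 3.58.1, other scalings and filters, each library left out and a replicate block were alternatives. The workflow was tested on simulated counts. Groups and replicate numbers came from the sample titles. No library was a copy of another: every pair within a group differed beyond counting error.

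The genes described and all lists were chosen with earlier results of these data known. Named genes are all 8 receptor genes, up to 6 tested genes of highest mean CPM per list, up to 4 variable, joining or diversity segments, 2 genes of most similar pattern per receptor gene, and Cnr2; the others were named after their values were seen. Per kb values use merged GENCODE M21 exons. Trgc1, Trgc2 and Trgc4 were matched to GENCODE's Tcrg-C1, Tcrg-C2 and Tcrg-C4 by start position and RefSeq synonym. Of the 8 genes, 4 had a RefSeq promoter window. Lists of other cell types came from textbook knowledge. Some genes and sequences that these rules would name are not reported here.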

Additional observations from a re-analysis of the deposited data

How the results depend on the processing

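Over 16 alternatives, all 111 fold changes of the 7 tested receptor genes kept their direction, and Trgc1 under DESeq2 was the only one to change its side of the threshold (log2 fold change -0.72, now called; the cause was not tested). Trgc2 has no value with a minimum mean count of 10. DESeq2 called 363 genes in all, against 15 by edgeR, and in the lists 1 receptor gene, 2 recombination genes, 1 coreceptor or accessory gene, 1 kinase or adaptor, 1 downstream gene, 4 ILC2 markers, 1 macrophage marker and 1 mast cell marker, against 0 each by edgeR. Leaving out WT replicates 1, 2 and 3 left 4, 3 and 4 genes past the threshold over all genes, and leaving out CB2 KO replicates 1, 2 and 3 left 8, 5 and 3. Fitted with the replicate block, 3 genes passed over all genes and 0 receptor genes. The correlations of deviations of same-numbered libraries were 0.07, 0.03 and 0.02, so the numbers were not taken to pair the samples and not every library correlated best with its own number. Shares of the constant genes moved by less than their spread when taken from the authors' normalized values. Other scalings moved the median of all genes by at most 0.03 on the log2 scale. Depth limits Trgc2, Cd3d and Cd3e, which had at most 64 counts in any library.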
